A study of Mus musculus with 8 samples.

Results

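The 9 B lineage transcription factors Pax5, Ebf1, Tcf3, Foxo1, Pou2af1, Pou2f2, Spib, Lef1 and Bach2 were chosen by name as factors of B cell commitment and of later B cell stages, and each had 1 row among the 52550 genes of the tables. RNA of bone marrow cells from C57BL/6J mice, sorted at the pre-pro-B or the pro-B stage, had been sequenced, and these libraries were used to ask how these factors differed between wild type (WT) mice and mice without lactoferrin (Lf-/-), the iron-binding protein encoded by Ltf. The deposited values were FPKM, fragment numbers scaled to the length of the transcript and to the size of the library, so levels of different genes can be set side by side. The pre-pro-B stage had 2 libraries of each genotype, and the pro-B stage had 1 of WT and 2 of Lf-/- mice, with the other WT sample of that stage not analysed here. No group was treated, the age of the mice was not given, and no restriction of the knockout to a cell type was named. Each group had 3 mice, but how these were divided among or pooled into its libraries was not stated, so the p-values measure the spread between these samples, which may be technical.

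A B cell is made from a lymphoid progenitor by a small network of factors. The E protein E2A (Tcf3) and the forkhead factor Foxo1 act early and open the way to Ebf1, which specifies the lineage, and Pax5, which commits the cell to it by shutting off the genes of other lineages. Lef1 belongs to the Wnt-responsive TCF family and is used by pro-B cells, while the octamer factor Oct-2 (Pou2f2), its coactivator OBF-1 (Pou2af1), the ETS factor Spi-B (Spib) and the repressor Bach2 are known above all from later B cells, Spi-B also from plasmacytoid dendritic cells.

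Ltf was at 2508 ± 318 FPKM (SD, n = 3) in the WT libraries and at 125 ± 39.2 FPKM (SD, n = 4) in the Lf-/- libraries, with no overlap. Neutrophil granule genes took between 27.5% and 55.2% of the summed FPKM of a library, and S100a8 alone was at 52882 FPKM or more in every library. The gate for pre-pro-B cells takes AA4.1+ B220+ cells and excludes, among others, cells with CD24, yet Cd24a was at 292 to 471 FPKM in the pre-pro-B libraries. The gate for pro-B cells (B220+ CD43+ IgM-) excludes surface IgM, and Ighm was at 385 to 960.5 FPKM in the pro-B libraries. Ptprc, which encodes B220, was at 2.41 to 6.41 FPKM in all libraries. The library Lf-/- pre-pro-B replicate 2 stood apart, with 12172 genes above 0 compared with 19477 to 20250 in the others. In bulk samples, fewer cells of a type and less RNA per cell cannot be told apart.

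The promoters of the 4 factors that were above 1 FPKM in at least 2 WT libraries and did not overlap between the genotypes, together with that of the commitment factor Pax5, are shown here so that the start regions of factors higher in the same libraries can be compared. The sequences come from RefSeq (GRCm38.p6), run 5′ to 3′ on the gene's strand and stop before the RefSeq or GENCODE start of the gene, whichever comes first. Capitals mark E-boxes, the CANNTG motif bound by E proteins such as E2A, and in Foxo1 also a match to the EBF1 motif (TCCC and GGGA with any 2 bases between). Spib is at chr7:44532072-44532321 (minus strand), Tcf3 at chr10:80433648-80433885 (minus), Pou2af1 at chr9:51213440-51213689 (plus), Foxo1 at chr3:52268087-52268335 (plus) and Pax5 at chr4:44710695-44710944 (minus).
Spib: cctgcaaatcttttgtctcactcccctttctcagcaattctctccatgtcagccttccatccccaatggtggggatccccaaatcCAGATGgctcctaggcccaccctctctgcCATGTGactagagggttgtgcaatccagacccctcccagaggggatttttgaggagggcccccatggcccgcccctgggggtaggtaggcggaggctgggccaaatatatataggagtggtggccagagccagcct
Tcf3: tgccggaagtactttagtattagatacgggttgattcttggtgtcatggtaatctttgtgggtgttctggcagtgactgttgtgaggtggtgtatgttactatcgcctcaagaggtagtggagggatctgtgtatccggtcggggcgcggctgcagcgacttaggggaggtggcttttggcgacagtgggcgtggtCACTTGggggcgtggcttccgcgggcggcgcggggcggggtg
Pou2af1: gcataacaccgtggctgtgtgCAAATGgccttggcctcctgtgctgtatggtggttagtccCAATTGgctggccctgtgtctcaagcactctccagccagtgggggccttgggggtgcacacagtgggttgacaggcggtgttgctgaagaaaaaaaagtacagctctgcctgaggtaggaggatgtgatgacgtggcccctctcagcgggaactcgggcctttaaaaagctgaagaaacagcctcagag
Foxo1: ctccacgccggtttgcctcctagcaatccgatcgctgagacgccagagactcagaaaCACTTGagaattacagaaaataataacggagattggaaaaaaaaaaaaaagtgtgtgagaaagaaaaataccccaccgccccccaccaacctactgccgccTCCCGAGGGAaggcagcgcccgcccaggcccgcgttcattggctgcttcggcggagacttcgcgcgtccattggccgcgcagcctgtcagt
Pax5: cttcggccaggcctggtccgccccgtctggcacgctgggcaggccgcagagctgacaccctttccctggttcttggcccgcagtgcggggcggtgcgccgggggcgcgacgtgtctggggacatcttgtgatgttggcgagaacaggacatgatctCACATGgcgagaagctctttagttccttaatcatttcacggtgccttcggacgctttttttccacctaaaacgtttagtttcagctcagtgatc
An E-box was found in at least 1 promoter entry of 8 of the 9 factors, Bach2 being the one without. Of the 2 entries of Ebf1 only 1 had it, while all 4 entries of Lef1 did. It was in 66.2% of all 32851 promoters, a share per entry, so this motif is common. The EBF1 motif was found in Foxo1 only, compared with 0.779% of all promoters. GAGGAA, the core bound by PU.1 and Spi-B, read on both strands, was found in Pou2f2 and in 1 entry each of Ebf1 and Lef1, compared with 23.3% of all promoters. The octamer ATGCAAAT (1.60% of all promoters), the FOXO motif TGTTTAC (3.17%) and the LEF1 motif CTTTGAA (4.46%) were found in none of the 9. These matches are letters in a window of 250 bases or less and not measured binding sites.

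All 9 are protein-coding genes of the GENCODE annotation of GRCm38. Among the early factors, Tcf3 on chromosome 10 (80409514 to 80433647, minus strand), Foxo1 on chromosome 3 (52268336 to 52353221, plus strand), Ebf1 on chromosome 11 (44617317 to 45008091, plus strand), Pax5 on chromosome 4 (44524757 to 44710487, minus strand) and Lef1 on chromosome 3 (131110471 to 131224356, plus strand) are annotated. Among the others are Spib on chromosome 7 (44525993 to 44532071, minus strand), Pou2af1 on chromosome 9 (51213708 to 51240080, plus strand), Pou2f2 on chromosome 7 (25087344 to 25179726, minus strand) and Bach2 on chromosome 4 (32238804 to 32586108, plus strand).

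Spib had the highest level of the 9 factors. It was above Tcf3, the next in order of mean FPKM, in 7 of 7 libraries. Tcf3 was above Pou2af1 in 6 of 7 libraries and Pou2af1 above Foxo1 in 6 of 7, and Foxo1 was above Ebf1 in 7 of 7. Ebf1, Lef1 and Pax5 could not be ordered, with mean levels of 2.52, 2.41 and 2.41 FPKM and an order that changed from library to library. Bach2 and Pou2f2 were lowest, with mean levels of 1.31 and 0.525 FPKM. The plot of levels by library shows this order together with the split between the genotypes.

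**Figure D1:**
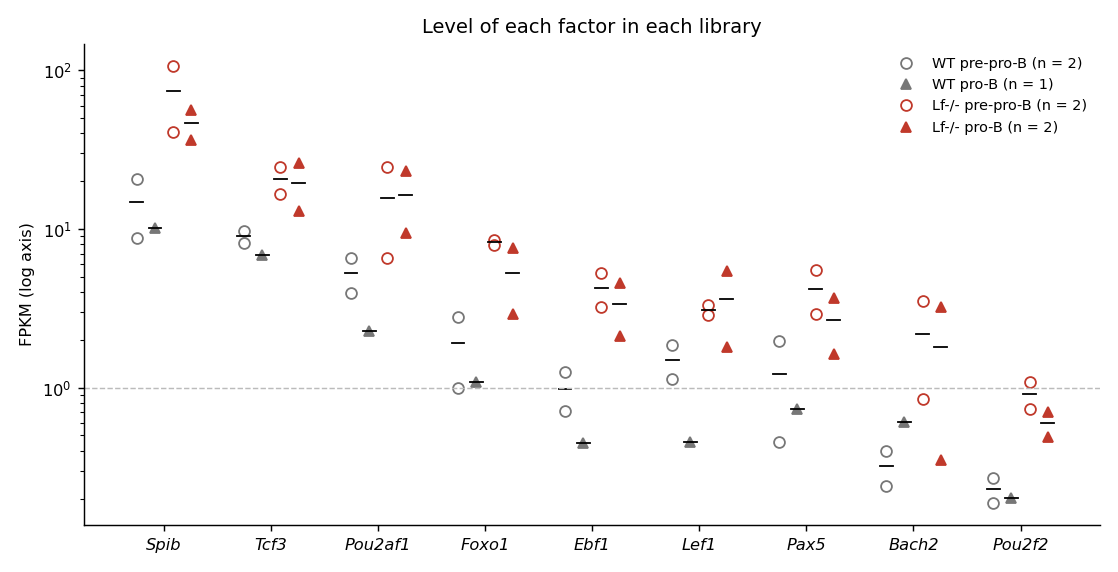
FPKM (log axis) of the 9 factors, ordered by mean level, in the 7 libraries. Gray symbols are WT and red symbols Lf-/- libraries, open circles pre-pro-B and filled triangles pro-B, short bars the group mean and the dashed line 1 FPKM. The Lf-/- symbols of Spib, Tcf3, Pou2af1, Foxo1, Ebf1 and Pou2f2 lie above all of their WT symbols, and those of Lef1, Pax5 and Bach2 overlap with them.

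Each of the 4 Lf-/- libraries was above each of the 3 WT libraries for 6 of the 9 factors (Spib, Pou2f2, Tcf3, Pou2af1, Foxo1 and Ebf1). So were 9.87% of the 10793 genes that reached 1 FPKM in 2 or more libraries. The highest value was in an Lf-/- library for each factor, in Lf-/- pre-pro-B replicate 1 for 6, in Lf-/- pro-B replicate 1 for 2 and in Lf-/- pre-pro-B replicate 2 for 1. The lowest value was in a WT library for each, in WT pre-pro-B replicate 2 for 5 and in the WT pro-B library for 4. Lf-/- pro-B replicate 2 was the lowest Lf-/- library for 8 factors. Without it 9 of 9 factors showed no overlap, compared with 13.0% of all genes. That library was picked for its low values of these factors, so this separation follows from the choice and is a description.

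Among the early factors, Tcf3 was at 9.76 and 8.21 FPKM for WT against 24.7 and 16.5 FPKM for Lf-/- among pre-pro-B libraries, and at 6.83 FPKM for WT against 26.2 and 13.03 FPKM for Lf-/- among pro-B libraries. All Lf-/- values lay above all WT values, the lowest 1.33-fold above the highest WT value. Foxo1, a target of PI3K signaling that drives recombination genes such as Rag1, was at 2.80 and 0.999 FPKM for WT against 8.55 and 7.93 FPKM for Lf-/- among pre-pro-B libraries, and at 1.08 FPKM for WT against 7.61 and 2.92 FPKM for Lf-/- among pro-B libraries. Its Lf-/- pre-pro-B values were close together, while its lowest Lf-/- value was 1.04-fold above the highest WT value. Ebf1 was at 1.26 and 0.708 FPKM for WT against 5.32 and 3.22 FPKM for Lf-/- among pre-pro-B libraries, and at 0.445 FPKM for WT against 4.58 and 2.12 FPKM for Lf-/- among pro-B libraries. The genotypes did not overlap, and the lowest Lf-/- value of Ebf1 was 1.69-fold above its highest WT value.

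Pax5 was at 1.97 and 0.453 FPKM for WT against 5.51 and 2.90 FPKM for Lf-/- among pre-pro-B libraries, and at 0.730 FPKM for WT against 3.69 and 1.63 FPKM for Lf-/- among pro-B libraries. Lf-/- pro-B replicate 2 fell below WT pre-pro-B replicate 1, so the genotypes overlapped across the stages and did not overlap within either. The 2 WT pre-pro-B libraries differed 4.35-fold in Pax5, more than in any other of the 9 factors. Lef1 was at 1.14 and 1.85 FPKM for WT against 3.30 and 2.85 FPKM for Lf-/- among pre-pro-B libraries, and at 0.457 FPKM for WT against 5.47 and 1.81 FPKM for Lf-/- among pro-B libraries. Here too only Lf-/- pro-B replicate 2 lay below a WT value, by a narrow margin.

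Of the factors known from later B cells, Spib was at 20.8 and 8.81 FPKM for WT against 107 and 41.0 FPKM for Lf-/- among pre-pro-B libraries, and at 10.1 FPKM for WT against 56.3 and 36.5 FPKM for Lf-/- among pro-B libraries. The lowest Lf-/- value was 1.75-fold above the highest WT value, with replicates of one group up to 2.60-fold apart. Pou2af1 was at 6.54 and 3.95 FPKM for WT against 24.7 and 6.57 FPKM for Lf-/- among pre-pro-B libraries, and at 2.28 FPKM for WT against 23.2 and 9.47 FPKM for Lf-/- among pro-B libraries. Its lowest Lf-/- and highest WT value were 1.01-fold apart and could not be told from each other. Pou2f2 was at 0.271 and 0.187 FPKM for WT against 0.737 and 1.09 FPKM for Lf-/- among pre-pro-B libraries, and at 0.201 FPKM for WT against 0.703 and 0.488 FPKM for Lf-/- among pro-B libraries. It did not overlap between the genotypes, at levels that rest on few fragments. Bach2 was at 0.402 and 0.239 FPKM for WT against 3.49 and 0.845 FPKM for Lf-/- among pre-pro-B libraries, and at 0.604 FPKM for WT against 3.24 and 0.348 FPKM for Lf-/- among pro-B libraries. It was high in 1 Lf-/- library of each stage, and the 2 Lf-/- pro-B libraries differed 9.30-fold.

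Genotypes were compared over both stages after transformation to log2(FPKM + 1), in which the change of a low gene appears too small. Of the 9 factors, 8 entered limma's test and Pou2f2 did not, since it reached 1 FPKM in 1 library. Pax5, Ebf1 and Bach2 passed this filter through Lf-/- libraries, which favors a difference in that direction, so counts over the 8 are a description. The difference between Lf-/- and WT was 2.14 for Spib (95% confidence interval 1.16 to 3.13, adjusted p = 0.152), 1.64 for Foxo1 (0.75 to 2.53, adjusted p = 0.247), 1.63 for Pou2af1 (0.44 to 2.81, adjusted p = 0.488) and 1.45 for Ebf1 (0.67 to 2.23, adjusted p = 0.243). It was 1.18 for Tcf3, 1.18 for Pax5, 1.05 for Lef1 and 0.91 for Bach2, with adjusted p between 0.390 and 0.689.

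None of the 8 factors passed limma's test after adjustment at 0.05, where 0.176% of the 10793 genes were called higher. At an unadjusted p under 0.05, the study's own threshold, 7 of the 8 were higher in Lf-/- cells, all but Bach2, compared with 6.48% of all genes tested. The median difference was 1.32 over the 8 factors and 0.21 over all genes tested, of which 66.8% were higher. Among the 5 factors with at least 1 FPKM in 2 or more WT libraries, 5 passed the unadjusted threshold. Without a filter on low values, Pou2f2 had a difference of 0.54 (adjusted p = 0.843).

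The adjusted calls depended on the library that stood apart. Without Lf-/- pre-pro-B replicate 2, Spib rose by 2.47 (adjusted p = 0.019) and Pou2af1 by 2.18 (adjusted p = 0.022) in Lf-/- cells on the log2 scale in limma's test, and 1.13% of 10529 genes were called higher. Ebf1 had a difference of 1.61 (adjusted p = 0.029, limma), but it reached 1 FPKM in only 1 WT library and thus entered the test through the Lf-/- libraries in which it was high. The other 5 factors had differences of 1.17 to 1.64 and adjusted p between 0.068 and 0.311. Unadjusted, 8 of 8 then passed, compared with 8.82% of all genes. Without the WT pro-B library, 4 of 8 passed unadjusted, compared with 2.76% of all genes. With median-ratio scaling, which gives each library the same typical gene, the median of all genes moved to -0.066 and that of the 8 factors to 1.12, and 7 of 8 still passed unadjusted, compared with 4.06% of all genes. That scaling changed the split of all genes with an unadjusted p under 0.05 from 699 higher and 75 lower to 436 higher and 373 lower. With quantile normalization the median of the 8 factors was 1.18. Then 5 of 8 passed unadjusted, all but Tcf3, Pou2af1 and Bach2, compared with 522 of 10793 genes called higher.

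In pre-pro-B cells alone, 9 of 9 factors had both Lf-/- libraries above both WT libraries, compared with 15.1% of all genes tested. The fit over the 4 groups gave differences of 2.20 for Spib (SE 0.60), 1.75 for Foxo1 (SE 0.54), 1.39 for Ebf1 (SE 0.47) and 1.09 for Tcf3 (SE 0.46), and these 4 of 8 had an unadjusted p under 0.05, compared with 2.76% of all genes. Pax5 (1.28), Pou2af1 (1.19), Bach2 (1.13) and Lef1 (0.72) did not pass, and none of the 8 passed after adjustment (adjusted p = 0.792 for each, from limma). The unadjusted count was 7 of 8 without Lf-/- pre-pro-B replicate 2, where 4.06% of all genes were called higher. It was 0 of 8 without WT pre-pro-B replicate 2, the library lowest in 5 factors, where 0.855% of all genes were called higher.

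In pro-B cells there was 1 WT library, whose spread was taken from the other groups. Both Lf-/- values were above the WT value for 8 of 9 factors, all but Bach2, but so they were for 75.3% of all genes tested. Differences were 2.28 for Pou2af1 (SE 0.84), 2.06 for Spib (SE 0.74), 1.55 for Lef1 (SE 0.61), 1.53 for Ebf1 (SE 0.57) and 1.32 for Tcf3 (SE 0.56), and these 5 of 8 passed unadjusted, compared with 4.18% of all genes. Foxo1 (1.48), Pax5 (1.02) and Bach2 (0.58) did not. None passed after adjustment in limma's test, with adjusted p of 0.822 to 0.828. The median of all genes was itself 0.48 in this comparison, and with median-ratio scaling, which brought it to 0.0059, the differences of the 8 factors lay between 0.28 and 1.77 and 0 of 8 passed unadjusted (1.73% of all genes). With quantile normalization 0 of 8 passed (2.28% of all genes) and without a filter 1 of 9 (3.86%). Nor did any pass without Lf-/- pro-B replicate 1, in a fit of 7 factors (1.23% of all genes). Without WT pre-pro-B replicate 1 or without WT pre-pro-B replicate 2, 2 of 8 passed (2.25% and 2.23% of all genes). The plot of differences sets the intervals of the comparisons side by side.

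**Figure D2:**
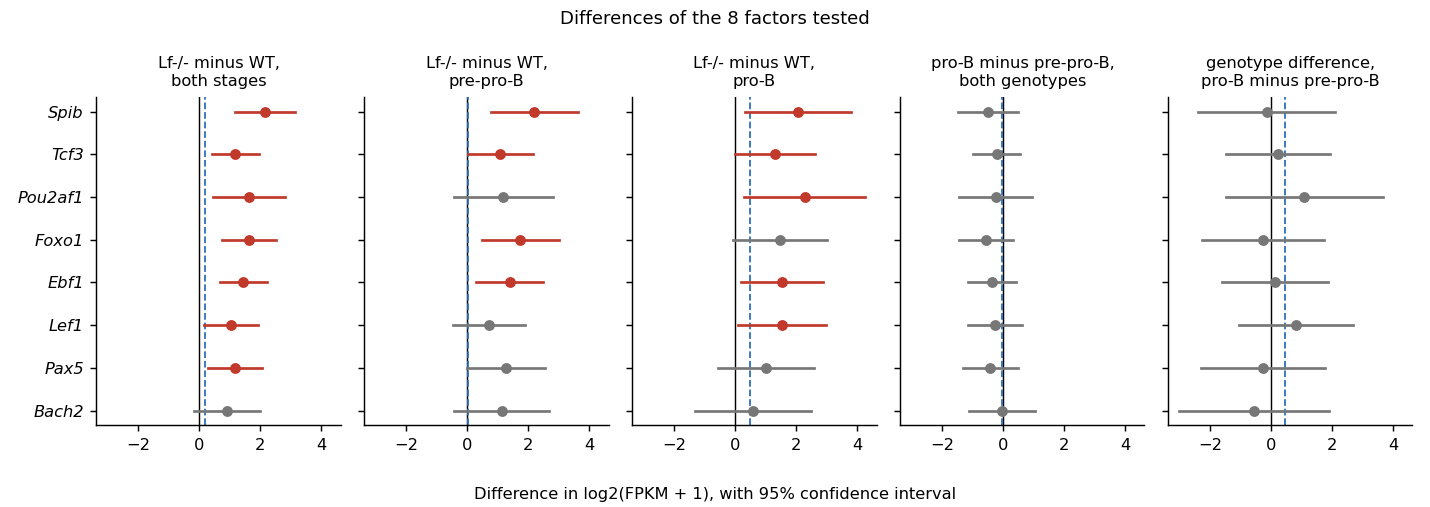
Difference in log2(FPKM + 1) of the 8 factors tested, with 95% confidence intervals from limma, for genotype over both stages and within each stage, for stage, and for the change of the genotype difference between stages. Red marks an unadjusted p under 0.05, the black line is 0 and the dashed line the median of all genes tested. The genotype differences lie between 0.58 and 2.28, and the intervals of stage and of the change between stages all include 0.

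Pro-B and pre-pro-B cells did not differ in these factors beyond the spread between libraries. Pax5 and Ebf1, which are known to climb as pro-B cells form, were not higher in the pro-B libraries, with differences (pro-B minus pre-pro-B) of -0.42 (95% confidence interval -1.32 to 0.48) and -0.36 (-1.14 to 0.42). All 8 differences were below 0, from -0.56 for Foxo1 to -0.048 for Bach2, compared with 52.6% of all genes tested. None of the 8 passed adjusted or unadjusted in limma's test, where 1.25% of all genes were higher and 1.16% lower at an unadjusted p under 0.05. The sign of Pou2af1, Lef1, Tcf3 and Bach2 turned when single libraries were left out.

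The genotype difference itself was compared between the stages. It was larger in pro-B than in pre-pro-B cells by 1.09 for Pou2af1 (95% confidence interval -1.49 to 3.66) and by 0.83 for Lef1 (-1.04 to 2.69), and smaller by 0.55 for Bach2, of which the interval was -3.01 to 1.90. Unadjusted p lay between 0.329 and 0.884 for the 8 factors, and 0 of 8 passed, compared with 2.53% of all genes for a larger and 0.213% for a smaller difference. These wide intervals do not show that the genotype difference was alike in the stages.

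B lineage genes that are not transcription factors were set beside the factors. The list of 14, which includes the signaling chains and surrogate light chains of the B cell receptor, had 13 genes tested over both stages, of which 13 were higher in Lf-/- cells, 12 at an unadjusted and 2 at an adjusted p under 0.05. Of all genes tested 66.8% were higher, 6.48% at an unadjusted and 0.176% at an adjusted p under 0.05. Cd79b rose by 2.82 (adjusted p = 0.014) and Cd79a by 2.79 (adjusted p = 0.027) in limma's test, while Vpreb3 had a difference of 2.42 (adjusted p = 0.107) and Cd72 of 2.37 (adjusted p = 0.152). The adjusted count moved with each library, to 8 of 12 without Lf-/- pre-pro-B replicate 2, 3 of 12 without Lf-/- pre-pro-B replicate 1, 1 of 13 without WT pre-pro-B replicate 1, and 0 of 13 without WT pre-pro-B replicate 2, the WT pro-B library or either Lf-/- pro-B library. It was also 0 of 13 with median-ratio scaling, while every gene tested stayed higher in each of these fits. The adjusted calls over all genes were 119 of 10529 higher without Lf-/- pre-pro-B replicate 2, and 55 of 10581 without Lf-/- pre-pro-B replicate 1. The median of the B lineage list was 2.10, compared with 1.32 for the factors. Its summed level was 233 to 635 FPKM in the WT libraries and 1626 to 3624 FPKM in the Lf-/- libraries, and that of the 9 factors 22.8 to 44.9 FPKM and 68.3 to 183 FPKM.

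Mature B cell genes were higher in Lf-/- cells as well. Of 12 genes, 11 were tested and 11 were higher in Lf-/- cells with a median of 1.77, compared with 66.8% of all genes tested. Of the 11, 9 had an unadjusted p under 0.05 (6.48% of all genes) and 3 an adjusted p under 0.05 (0.176%). As in the B lineage list, some genes of this list were below 1 FPKM in every WT library and passed the filter through Lf-/- libraries. That favors a higher value in Lf-/- cells, so counts over both lists are a description. Ighd, the IgD heavy chain of naive B cells, rose by 3.36 (adjusted p = 0.044), the IgM Fc receptor Fcmr by 3.33 (adjusted p = 0.021) and CD20 (Ms4a1) by 2.68 (adjusted p = 0.027) in limma's test, and the BAFF receptor Tnfrsf13c had a difference of 2.32 (adjusted p = 0.053). The adjusted count was 7 of 11 without Lf-/- pre-pro-B replicate 2, 5 of 11 without Lf-/- pre-pro-B replicate 1, 0 of 11 without any one of the other 5 libraries and 2 of 11 with median-ratio scaling. The list summed to 44.6 to 68.5 FPKM in WT and 230 to 463 FPKM in Lf-/- libraries. The part of B lineage and mature B cell content in the differences of the 9 factors was not tested, but the level of each factor relative to the B lineage genes of the same library was measured.

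On that relative scale (log2(FPKM + 1) of a factor minus the mean of the 14 B lineage genes), 8 of 9 factors were lower in Lf-/- than in WT libraries, all but Spib. The median difference was -0.72, with a range from -1.35 to 0.20. The mean of the B lineage genes was itself 1.86 higher in Lf-/- libraries, so a gene without change would come out lower too. This direction was thus largely set by the reference, and the share of all genes that were lower or did not overlap was not measured. The mean of the 14 B lineage genes was 3.30 ± 0.55 (SD, n = 3) in WT and 5.16 ± 0.44 (SD, n = 4) in Lf-/- libraries, and that of the 9 factors 1.58 ± 0.31 and 2.83 ± 0.51. Lef1 was the most even, at -2.24 ± 0.093 in WT and -3.10 ± 0.090 in Lf-/- libraries with no overlap. Pou2f2 did not overlap either, at -3.01 ± 0.55 and -4.36 ± 0.40, and the other 7 overlapped. Low genes are pressed together by the pseudocount of 1. With 0.1 in its place 9 of 9 were lower with a median of -0.43, no overlap for Lef1 and Tcf3, and overlap for Pou2f2. Among these 9, Spib (-0.0065) and Ebf1 (-0.020) hardly differed between the genotypes, by far less than the SD within either.

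**Figure D3:**
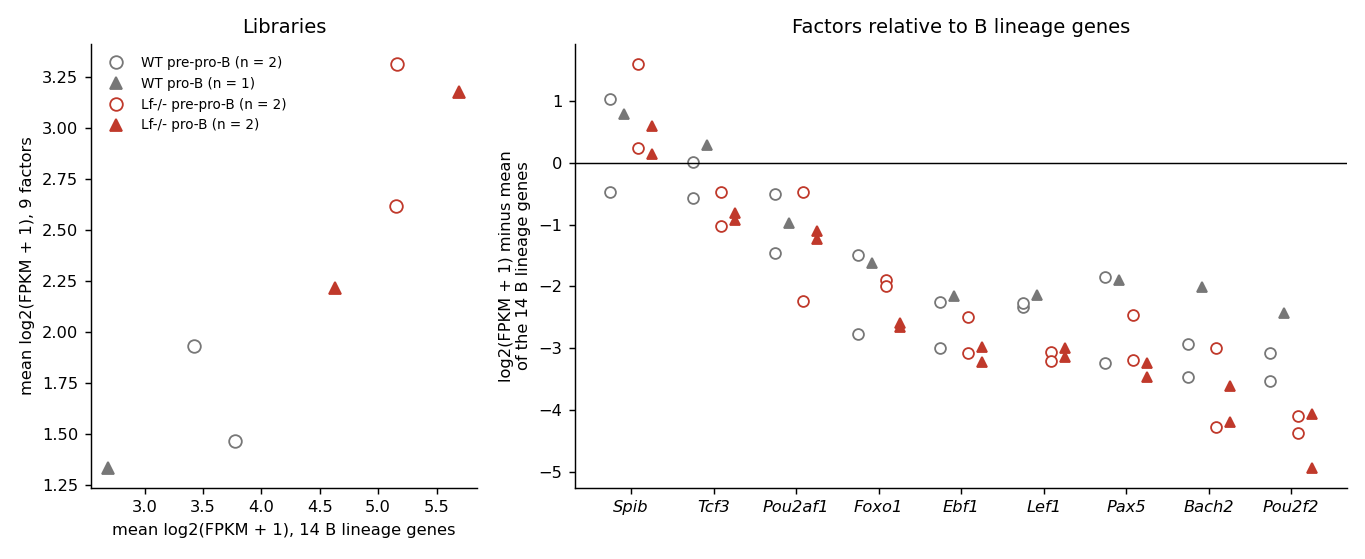
Left, mean log2(FPKM + 1) of the 9 factors against that of the 14 B lineage genes in each of 7 libraries. Right, log2(FPKM + 1) of each factor minus the mean of the B lineage genes of its library, with symbols as in the plot of levels. The 4 Lf-/- libraries lie right of and above the 3 WT libraries. Relative to B lineage genes, 8 of 9 factors have a lower mean in Lf-/- libraries, as a gene without change would.

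E protein partners and inhibitors form the nearest network around Tcf3. Of the list of 6, Id4 was listed at 0 in every library and 5 were tested, all higher in Lf-/- cells with a median of 0.49, and 2 passed unadjusted and none after adjustment in limma's test. Tcf4 and Tcf12 were below 1 FPKM in every WT library and passed the filter through Lf-/- libraries. The count over this list is thus a description. Id3, which blocks E proteins from binding DNA, was at 10.9 and 5.75 FPKM for WT against 26.9 and 31.1 FPKM for Lf-/- among pre-pro-B libraries, and at 6.30 FPKM for WT against 52.1 and 20.2 FPKM for Lf-/- among pro-B libraries, a difference of 1.93 (SE 0.40, adjusted p = 0.153) without overlap. The E protein gene Tcf4 had a difference of 0.99 (adjusted p = 0.655), Id2 of 0.49, Tcf12 (HEB) of 0.47 and Id1 of 0.24, which turned to -0.10 with median-ratio scaling. Tcf3 and its inhibitor Id3 were thus both higher in the same 4 libraries.

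Of 13 other lymphoid transcription factors, 13 were tested, 12 were higher in Lf-/- cells and 6 passed unadjusted and none after adjustment in limma's test, with a median of 0.79. The largest differences were those of Irf4 (1.82, SE 0.43, adjusted p = 0.243), a factor of pre-B and plasma cells, of Ikzf3 (1.33), which encodes Aiolos, of Foxp1 (1.24) and of Irf8 (1.20). Irf4 and Ikzf3, among others, passed the filter through Lf-/- libraries, so counts over this list are a description. Spi1 (PU.1) and Runx1, which myeloid cells also use, had differences of 0.14 and 0.096, which turned to -0.22 and -0.18 with median-ratio scaling, where 9 of the 13 were higher. The median of the 8 factors tested, 1.32, lay between those of this list and of the B lineage genes, as the plot of gene lists shows.

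**Figure D4:**
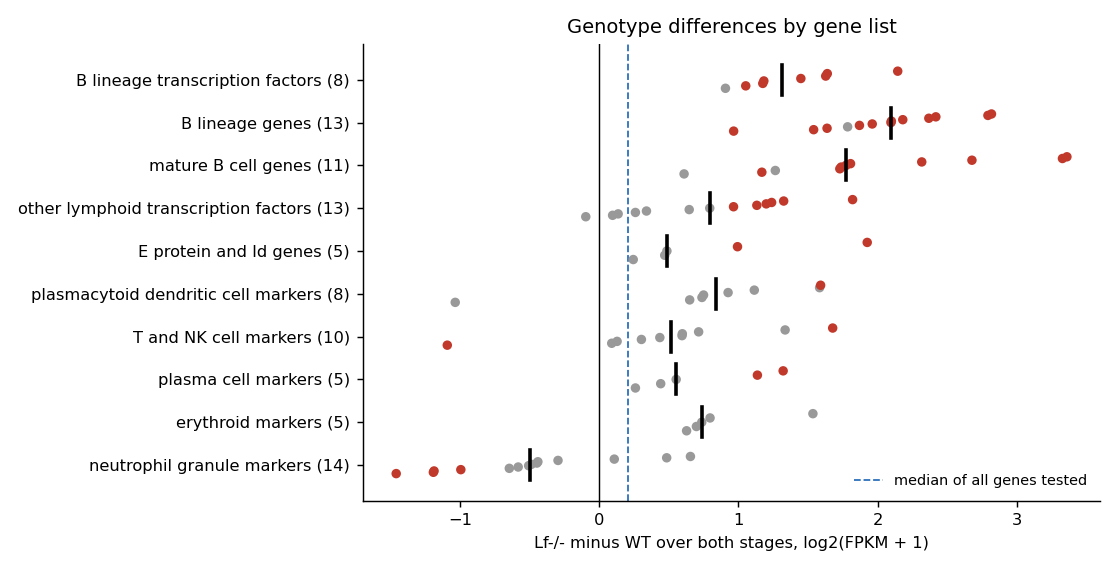
Genotype difference over both stages in log2(FPKM + 1) for every tested gene of 10 lists, with the number tested in brackets. Red marks an unadjusted p under 0.05, short black lines are list medians, the vertical black line is 0 and the dashed line the median of all genes tested, 0.21. The B lineage genes lie highest with a median of 2.10, the 9 factors (8 tested) have 1.32, and the neutrophil granule markers have -0.50.

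Markers of other cells were measured beside the factors, over both stages, where 66.8% of all genes tested were higher in Lf-/- cells. Neutrophil granule markers had a median of -0.50, with 11 of 14 lower in Lf-/- cells, and Elane (-1.46), Mpo (-1.19), Prtn3 (-1.19) and Ctsg (-0.99) passed unadjusted, while 0 of 14 passed without the WT pro-B library. Their summed level was 321505 to 460549 FPKM in WT and 190826 to 329097 FPKM in Lf-/- libraries, and none was at 0. Plasmacytoid dendritic cell markers, which matter for Spib, had 7 of 8 tested genes higher and a median of 0.84, with 71.2 to 103 FPKM in WT and 64.7 to 445 FPKM in Lf-/- libraries, and the largest differences were Cox6a2 (1.59), Cd300c (1.58), Siglech (1.11) and Klk1 (-1.04). Within the stages, 7 of 8 were higher in pre-pro-B cells with a median of 0.71, beside a difference of 2.20 for Spib. This direction rested on Lf-/- pre-pro-B replicate 2. Without that library 1 of 8 was higher in pre-pro-B cells, compared with 41.6% of all genes. Their median there was -0.39, beside 2.88 for Spib. In pro-B cells 8 of 8 were higher with a median of 1.29, beside 2.06 for Spib. Of all genes tested, 51.4% were higher in Lf-/- pre-pro-B cells, and 87.0% in Lf-/- pro-B cells with a median of 0.48. The 8 of 8 in pro-B cells is thus near the share over all genes. In Lf-/- pre-pro-B replicate 1, which had the highest Spib, their sum was the lowest of the 7 libraries, with Siglech at 1.98 FPKM. Without Lf-/- pre-pro-B replicate 2, where Klk1 was listed at 0, their median over both stages was 0.26 and the difference of Spib 2.47, and without Lf-/- pre-pro-B replicate 1 their median was 1.41.

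The remaining lists had medians of 0.51 to 0.74 over both stages, where all genes tested had a median of 0.21 and 66.8% were higher. Counts of higher genes in these short lists are thus a description. T and NK cell markers had a median of 0.51 with 9 of 10 tested higher (Lck 1.68, Cd247 1.34, Nkg7 -1.09 and Cd3d 0.71) and summed to 906 to 1298 FPKM in WT and 409 to 996 FPKM in Lf-/- libraries, with up to 7 of 12 genes at 0 in a library. Most of these sums was Nkg7, at 885 to 1283 FPKM in WT and 324 to 919 FPKM in Lf-/- libraries. Genes of this list such as Cd247, and a gene of the plasmacytoid dendritic cell list, were below 1 FPKM in every WT library. They passed the filter through Lf-/- libraries. In pre-pro-B cells 4 of 10 T and NK cell markers were higher with a median of -0.32. In pro-B cells 9 of 10 were higher, as were 87.0% of all genes tested. Beside a median of 1.50 for the factors, these markers had a median of 1.28. Over both stages their median was -0.32 without the WT pro-B library, 0.10 in 6 genes without Lf-/- pro-B replicate 1 and 0.24 in 7 genes without Lf-/- pro-B replicate 2. Plasma cell markers had a median of 0.55 with 5 of 5 tested higher, with Prdm1 not tested, namely Mzb1 (1.32), Sdc1 (1.14), Derl3 (0.55), Jchain (0.44) and Xbp1 (0.26), the last of which turned to -0.095 with median-ratio scaling. Without Lf-/- pre-pro-B replicate 1 their median was 0.92. Their sums were 306 to 1431 FPKM in WT and 400 to 1705 FPKM in Lf-/- libraries. Erythroid markers had a median of 0.74 with 5 of 5 higher (Alas2 1.54, Hbb-bs 0.80, Hba-a1 0.74, Hbb-bt 0.70 and Hba-a2 0.63), none passing unadjusted, and sums of 14732 to 55758 FPKM and 29522 to 105619 FPKM. Their median was 0.23 without Lf-/- pre-pro-B replicate 2 or without WT pre-pro-B replicate 2, 1.13 without WT pre-pro-B replicate 1, 1.18 without Lf-/- pre-pro-B replicate 1 and 0.37 with median-ratio scaling. Of the gate markers, 6 of 7 were tested and 6 were higher, with Flt3 at 1.21, Cd93 (AA4.1) at 0.94, Cd24a at 0.63, Ptprc at 0.58, Ighm at 0.34 and Spn (CD43) at 0.10, while Kit was not tested. With median-ratio scaling 4 of 7 were higher, as Ighm (-0.025) and Spn (-0.23) turned and Kit, tested there, had a difference of -0.64, and without Lf-/- pre-pro-B replicate 2, without WT pre-pro-B replicate 2 or without the WT pro-B library 5 of 6 were higher. The part of these markers in the differences of the factors was not tested.

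The 9 factors varied together over the libraries. Pearson's r between pairs of factors over the 7 libraries, on the log2(FPKM + 1) scale, had a median of 0.87 over 36 pairs, from 0.58 for Pou2f2 with Bach2 to 0.99 for Ebf1 with Tcf3. These libraries share their genotype split and their content of B lineage genes, so r is a description. Among genes with a mean of at least 5 FPKM, immunoglobulin and T cell receptor segments left out, those most like the mean profile of the 9 factors were S1pr1 (r = 0.989), Neil1 (0.984), Gm9855 (0.978), Btg1 (0.978) and Gm8369 (0.975). S1pr1 was at 6.10 and 1.89 FPKM for WT against 27.5 and 14.7 FPKM for Lf-/- among pre-pro-B libraries, and at 2.50 FPKM for WT against 26.4 and 8.28 FPKM for Lf-/- among pro-B libraries. Like 8 of the 9 factors, S1pr1 was highest in replicate 1 of an Lf-/- group.

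The nearest genes of single factors were partly shared. Pax5 was most like Fam89b (r = 0.985), Ddah2 (0.985) and Sox4 (0.975), and Ebf1 like Neil1 (0.989), Gm9855 (0.989) and Cnp (0.988). Spib was most like Dnajc7 (0.978), Btg1 (0.973) and Cnp (0.972), the last also near Ebf1. Lef1 was most like Slc38a2 (0.982), Grk2 (0.980) and Ifi209 (0.971), none of which was among the nearest genes of the other factors examined.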

How the data were processed

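RNA sequencing of sorted mouse bone marrow cells was analysed from 7 libraries. The authors deposited 1 FPKM value per gene and library, made from NovaSeq reads by the sequencing provider's normalization. The submitters' processing notes name TopHat, Cufflinks, HTSeq, DESeq and GRCm38, without versions or roles. Steps of the FPKM values in genes with 1 transcript corresponded roughly to 11100000 to 15600000 fragments in 6 libraries. In Lf-/- pre-pro-B replicate 2 the best match was roughly 18200000 fragments, from only 512 genes. The share of values near a whole number of fragments was 27.7% there and 30.7% to 40.1% in the others, with 20% expected by chance. No counting intervals were therefore given.

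Groups and replicate numbers were taken from the library labels. Values were transformed to log2(FPKM + 1), and the genes that reached 1 FPKM in 2 or more of 7 libraries (10793 of 52550) were fitted in limma 3.58.1 under R 4.3.3, with its trend option and Benjamini-Hochberg adjustment over all genes tested, two-sided. Genotype and stage over all libraries came from an additive fit, and differences within stages and their change between stages from a fit over the 4 groups. Coordinates were not lifted between builds. On simulated data for genotype over both stages, with 200 of 10793 genes changed by 2 on the log2 scale, 94.5% of the changed genes passed unadjusted and 56.5% after adjustment. Noise was drawn for each gene on its own, at the observed spread, and 2 unchanged genes also passed after adjustment. The factors other than Spib had differences smaller than 2, so these shares do not apply to them.

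The factors and the gene lists were chosen with earlier results of these data known. Named were the 9 factors, Ltf, the gate markers, at most 4 genes of each list with the largest genotype difference (all of a list under 7), and the genes with the highest r to the factors' mean profile (5) or to Pax5, Ebf1, Spib and Lef1 (3 each). Spi1, Runx1, Id4 and S100a8 were named after their values were seen. A few genes of the lists are not reported here and were left out of every count, median, mean and sum over a list. The alternatives were other scalings, filters and pseudocount, the replicate number as a block, other fits and each library left out. Python 3.11.15 was used for the other steps.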

Additional observations from a re-analysis of the deposited data

How the results depend on the processing

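Over both stages, the median genotype difference of the factors tested kept its direction under every alternative run, from 1.12 with median-ratio scaling to 1.83 with a pseudocount of 0.1, and 1.23 to 1.49 with single libraries left out. The count of factors with an adjusted p under 0.05, 0 of 8 as reported, was 1 (Spib) with at least 1 FPKM required in every library, where 3 factors were tested, and 1 (Spib, adjusted p = 0.042) with the replicate number as a block, and 0 to 3 with single libraries left out. In pre-pro-B cells the median of 1.23 became 1.98 with a pseudocount of 0.1 and 0.91 to 1.73 with single libraries left out. In pro-B cells the median of 1.50 became 2.09 with a pseudocount of 0.1, 2.06 with at least 1 FPKM required in every library, and 0.95 to 1.998 with single libraries left out. The smaller pseudocount compresses low genes less, and the stricter filter left only Spib, Tcf3 and Pou2af1. The change of the genotype difference between stages, with a median of -0.0045, ranged from -0.35 to 0.50 with single libraries left out.

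In the fits of the factors, signs turned only for differences by stage and for the change between stages, none of which had passed a threshold. By stage, Bach2 was at 0.0073 with equal weights for the genotypes and at -0.31 to 0.42 with single libraries left out, Pou2af1 at -0.79 to 0.19, Lef1 at -0.65 to 0.067 and Tcf3 at -0.47 to 0.0050. For the change between stages, Ebf1 was at -0.066 and Tcf3 at -0.20 with median-ratio scaling, and at -0.19 and -0.15 with quantile normalization. With the replicate number as a block, Pax5 was at 0.18, Foxo1 at 0.094 and Spib at 0.38. With single libraries left out the ranges were -0.28 to 0.55 for Ebf1, -0.25 to 0.70 for Tcf3, -0.77 to 0.26 for Pax5, -0.83 to 0.30 for Foxo1, -0.82 to 0.53 for Spib and -1.19 to 0.27 for Bach2. The causes were not tested.

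Replicate numbers in the labels are not said to mark a shared litter or day, and the deviations of same-numbered libraries correlated at 0.039, 0.053 and -0.013 between groups, so the numbers were not read as pairs. With the block, the median over both stages was 1.45. The number of factors without overlap and the level relative to B lineage genes, whose alternatives were chosen after seeing the data, were 4 and -0.67 with median-ratio scaling, compared with 6 and -0.72. Leaving out the only WT pro-B library gives no value for pro-B cells or for the change between stages. Bach2 was not tested in fits without Lf-/- pre-pro-B replicate 1, without Lf-/- pro-B replicate 1 or with the pre-pro-B libraries alone. Levels near 1 FPKM, as of Pou2f2, Bach2, Ebf1 and Pax5 in WT libraries, rest on few fragments.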
